A study of Mus musculus with 12 samples.

Results

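Endothelial cells line blood vessels, and 10 genes that mark them (Pecam1, Cdh5, Cldn5, Emcn, Kdr, Flt1, Tek, Tie1, Eng and Vwf) were followed in mammary tumors of MMTV-Neu mice. The genes were chosen by name, and all 10 were among the 54532 genes of the count and FPKM tables. Poly(A) RNA was sequenced from 12 tumors, 4 in each of 3 diet groups: control diet, MSU-42011 at 100 mg/kg diet and bexarotene at 100 mg/kg diet. Both compounds are agonists of the retinoid X receptor (RXR), a nuclear receptor, and the comparison of the groups asks how they change gene expression in established tumors. All mice were females that carry Neu, the rodent form of HER2, under the mouse mammary tumor virus promoter, which is active in mammary epithelium. The study's methods give a powdered chow as the base of all 3 diets. Ethanol and Neobee oil were the vehicle, mixed into the chow alone or with an agonist dissolved in it. Feeding lasted 10 days after tumors had reached a set size. Each library came from a frozen section of 1 tumor. The strain and the age of the mice are not given in the sources used here.

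Endothelial cells are held together by adherens junctions, built on VE-cadherin (Cdh5), and by tight junctions, of which claudin-5 (Cldn5) is a component. New vessels sprout when vascular endothelial growth factor (VEGF) made by tumor and stromal cells binds its receptors on these cells, and the angiopoietins act on a further pair of receptors, Tie1 and Tie2, to stabilize or loosen vessels. Growing tumors depend on such vessels, and the RNA of a whole tumor section holds endothelial transcripts among those of tumor cells, fibroblasts and leukocytes. In such bulk RNA, fewer endothelial cells and less endothelial RNA per cell cannot be told apart.

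The counts on genes ran from 16583413 to 25925027 per tumor, and 15504 genes, all 10 endothelial genes among them, passed edgeR's filter on low counts. Levels are given as normalized CPM, which are read counts scaled to library size with edgeR's TMM factors. Bexarotene replicate 1 stood apart from the other tumors. It lay at 115 on the first principal component, where the other 11 lay between -34.2 and 16.2, so the comparisons that include the bexarotene group are given with and without it. In the tumor epithelium list (Epcam, Krt18, Cldn3 and 6 others) the summed level ran from 4820 to 6568 normalized CPM in the other 11 tumors, and it was 3173 in bexarotene replicate 1. Of the 9 genes, 1 (Krt19) was above the range of the others there, at 28.15 against at most 1.956. Cldn4 (43.2) and Erbb2 (102.8) lay inside their ranges (16.7 to 133.5 and 93.8 to 172.9), and the other genes lay below theirs.

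Kdr and Flt1 are related receptors, as are Tek and Tie1, while the other genes belong to different families. Many endothelial genes are known to be controlled by ETS factors, whose sites hold a GGAA core. RefSeq's promoter table (GRCm38.p6) held 7 of the 10 genes, namely Eng, Emcn, Tek, Tie1, Kdr, Flt1 and Cldn5. The 250 bases before the transcription start were searched for an ETS-type form with a first A and one with a first C. The form AGGAAG was found in 4 of the 7 and in 29.5% of the 32851 promoters of the table. The form CGGAAG was found in 1 of the 7 and in 13.6% of all promoters. Either form was present in 4 of the 7 and in 39.2% of all promoters. The FOX-type letters GTAAACA (3.17% of all promoters) and the GATA-type letters AGATAA (9.99%) were in none of the 7 windows. These searches covered both strands, no matches overlapped, and a match is a description of the letters only. The 4 promoters with ETS-type letters are printed because they show where the shared letters lie, and that of Tek because it had the smallest p-value of the members and none of these letters. Capitals mark either ETS-type form or its reverse complement, each window is read 5′ to 3′ on the strand of the gene, and its last base is the one before the start.
Eng (chr2:32646345-32646594, plus strand): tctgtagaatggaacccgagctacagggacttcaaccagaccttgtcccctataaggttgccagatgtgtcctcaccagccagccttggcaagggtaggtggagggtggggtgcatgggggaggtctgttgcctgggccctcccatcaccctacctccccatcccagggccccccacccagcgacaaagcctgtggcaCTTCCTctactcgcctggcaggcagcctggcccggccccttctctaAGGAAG
Flt1 (chr5:147726012-147726261, minus strand): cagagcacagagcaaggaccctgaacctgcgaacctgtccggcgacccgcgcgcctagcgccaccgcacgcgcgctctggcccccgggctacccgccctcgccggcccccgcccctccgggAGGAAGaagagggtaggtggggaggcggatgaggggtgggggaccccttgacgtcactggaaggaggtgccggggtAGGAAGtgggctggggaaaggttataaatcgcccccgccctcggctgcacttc
Tie1 (chr4:118489850-118490099, minus strand): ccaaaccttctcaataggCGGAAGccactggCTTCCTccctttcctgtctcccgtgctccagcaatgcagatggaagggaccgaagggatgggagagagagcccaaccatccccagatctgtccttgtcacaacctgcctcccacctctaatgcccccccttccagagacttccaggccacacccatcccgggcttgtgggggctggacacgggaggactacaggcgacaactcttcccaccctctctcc
Emcn (chr3:137340828-137341077, plus strand): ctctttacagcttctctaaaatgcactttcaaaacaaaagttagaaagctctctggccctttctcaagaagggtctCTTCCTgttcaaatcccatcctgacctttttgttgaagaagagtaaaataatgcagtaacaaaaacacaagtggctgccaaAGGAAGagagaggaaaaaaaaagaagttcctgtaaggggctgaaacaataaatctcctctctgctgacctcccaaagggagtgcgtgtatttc
Tek (chr4:94739039-94739288, plus strand): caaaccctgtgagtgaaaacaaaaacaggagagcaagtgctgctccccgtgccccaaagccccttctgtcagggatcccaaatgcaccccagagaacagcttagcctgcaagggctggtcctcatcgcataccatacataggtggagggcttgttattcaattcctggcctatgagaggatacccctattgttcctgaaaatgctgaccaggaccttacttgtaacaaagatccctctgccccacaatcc
In Eng, 1 match ended at the last base before the start and the other lay from -52 to -47. The matches lay from -129 to -124 and from -53 to -48 in Flt1, from -232 to -227 and from -219 to -214 in Tie1, and from -174 to -169 and from -93 to -88 in Emcn. Kdr and Cldn5, like Tek, had none of these letters in this window.

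Levels of different genes were compared per length. On the FPKM scale of the authors, the highest mean in control tumors was that of Eng (18.9 ± 6.44 FPKM, SD, n = 4), followed by Cdh5 (15.4 ± 6.12), Pecam1 (13.2 ± 4.99), Flt1 (6.80 ± 1.91), Kdr (4.82 ± 0.897), Emcn (4.64 ± 1.71), Tie1 (3.68 ± 0.696), Cldn5 (3.03 ± 0.714), Tek (0.618 ± 0.0411) and Vwf (0.471 ± 0.320). Among neighbours in this order, the gap between Cldn5 and Tek was the only one larger than the sum of the SDs of the genes on either side of it, in the control and in the MSU-42011 group. In the bexarotene group no pair of neighbours was separated by this measure, and bexarotene replicate 1 set the SDs there. The length behind an FPKM value was shorter than the longest coding transcript for several genes, by the most for Vwf (2663 against 8834 bases) and Flt1 (2989 against 6895). Per kilobase of the longest coding transcript, Flt1 moved below Cldn5 in control tumors, and the 3 genes at the top (Eng, Pecam1 and Cdh5) and the pair at the bottom (Tek and Vwf) were the same. Vwf was the lowest of the 10 in all 3 groups on both scales.

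Pecam1 (chr11:106654217-106750628, GRCm38, minus strand) encodes CD31, an adhesion molecule at contacts between endothelial cells that is also present on platelets and some leukocytes. Its level was 45.8, 18.5, 27.4 and 42.0 normalized CPM in control replicates 1 to 4, and 38.9, 21.8, 62.1 and 27.7 in the MSU-42011 tumors. In the bexarotene tumors it was 112, 26.9, 33.8 and 30.8. The groups overlapped, and the tumor at 112 was 1.80 times as high as the next highest. Cdh5 (chr8:104101625-104144511, plus strand), the cadherin of endothelial adherens junctions, was at 44.0, 18.8, 26.5 and 47.7 in control tumors and at 45.2, 28.6, 62.2 and 39.3 with MSU-42011. With bexarotene it was at 124, 35.7, 40.4 and 36.9. Control replicate 2 held the lowest and bexarotene replicate 1 the highest value of both genes, and MSU-42011 replicate 3 was next to it. An antisense gene overlaps Cdh5 and had 0 counts in all tumors.

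Cldn5 (chr16:18776847-18778262, plus strand), a tight junction protein of endothelium, was lower than both and more variable. It was at 5.04, 3.69, 3.31 and 5.60 normalized CPM in control tumors and at 5.33, 3.39, 12.2 and 4.86 with MSU-42011. The bexarotene tumors were at 25.9, 7.77, 4.65 and 2.94 and held both the highest and the lowest of all 12 values. Emcn (chr3:137341067-137432185, plus strand) encodes endomucin, a sialomucin of capillary and venous endothelium. Its values were 14.1, 5.63, 8.66 and 10.5 in control tumors, 9.02, 10.1, 16.2 and 10.9 with MSU-42011, and 32.7, 9.01, 8.77 and 10.1 with bexarotene. All groups overlapped for both genes, and bexarotene replicates 2 to 4 lay within the control range for Emcn.

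Kdr (chr5:75932827-75978458, minus strand) encodes VEGFR2, the main signalling receptor for VEGF-A. It was at 24.4, 16.4, 23.8 and 21.5 normalized CPM in control tumors, 23.2, 23.1, 25.6 and 19.9 with MSU-42011, and 62.0, 21.2, 19.5 and 31.4 with bexarotene. Flt1 (chr5:147561604-147726011, minus strand) encodes VEGFR1, which also has a soluble form that binds VEGF. Its values were 23.5, 14.0, 18.2 and 27.7 in control tumors, 24.6, 18.1, 23.6 and 19.7 with MSU-42011, and 55.2, 18.0, 24.99 and 19.8 with bexarotene. These receptors varied least among the 11 tumors without bexarotene replicate 1, with a coefficient of variation of 17.0% for Kdr and 19.2% for Flt1. The other 8 genes had coefficients from 24.6% (Eng) to 62.3% (Vwf).

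Tek (chr4:94739289-94874976, plus strand) encodes Tie2, the receptor of the angiopoietins. The 4 control tumors lay close together, at 2.37, 2.13, 2.08 and 2.11 normalized CPM. With MSU-42011 it was at 1.98, 2.36, 4.01 and 2.93, and with bexarotene at 24.8, 3.91, 2.81 and 1.53. These values rest on 25 to 82 counts in the 11 tumors and on 671 counts in bexarotene replicate 1, which was 6.18 times as high as the next tumor. Tie1 (chr4:118471191-118490061, minus strand), the partner receptor of Tie2, was at 16.9, 11.3, 12.3 and 15.8 in control tumors and at 14.5, 13.0, 30.3 and 15.6 with MSU-42011. With bexarotene it was at 56.3, 15.4, 15.6 and 14.8. For Tie1, MSU-42011 replicate 3 was clear of the other MSU-42011 tumors, and bexarotene replicates 2 to 4 lay within the control range.

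Eng (chr2:32646595-32682669, plus strand) encodes endoglin, a co-receptor for ligands of the TGF-beta family on endothelial cells. It was at 43.9, 23.0, 49.9 and 32.9 normalized CPM in control tumors, 32.9, 30.5, 49.2 and 30.3 with MSU-42011, and 124, 36.5, 27.0 and 33.7 with bexarotene. It shares 61 bases with Fpgs on the other strand, and since the strand setting of the counting is not given, reads in that stretch cannot be assigned to either gene with certainty. Vwf (chr6:125546774-125686679, plus strand) encodes von Willebrand factor, the clotting protein that endothelial cells store and release. It was at 1.54, 2.46, 0.535 and 0.646 in control tumors, 1.04, 1.64, 2.55 and 0.335 with MSU-42011, and 15.5, 1.81, 0.630 and 0.674 with bexarotene. Outside bexarotene replicate 1, with 421 counts, these values rest on 8 to 52 counts per tumor, and control replicate 2, the lowest control tumor for 7 of the 10 genes, was the highest control tumor for Vwf.

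**Figure D1:**
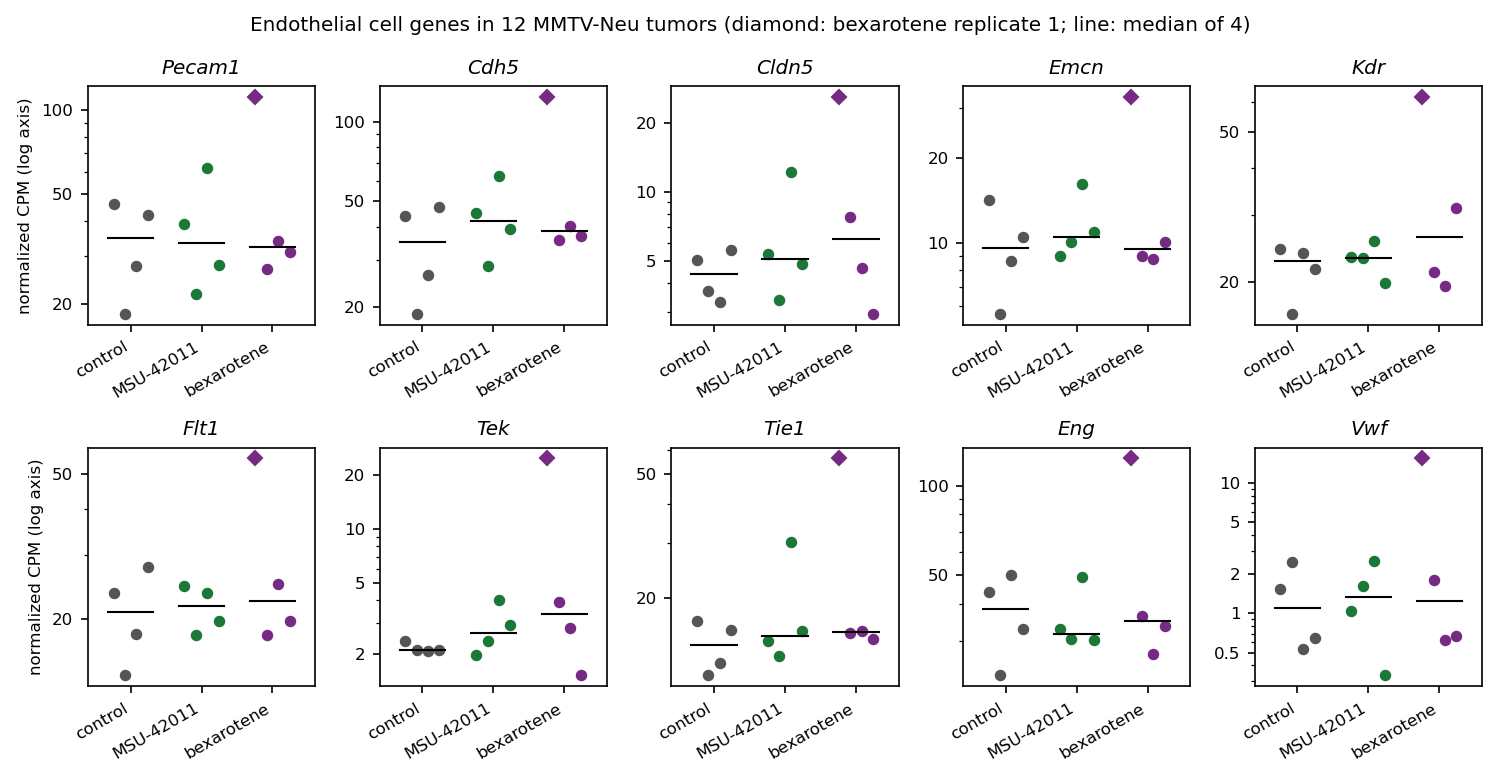
Normalized CPM (log axis) of each of the 10 genes in the 12 tumors, by diet group, with replicates 1 to 4 from left to right and a line at the median of each group. Bexarotene replicate 1 (diamond) was the highest of the 12 tumors for all 10 genes, and the other tumors of the 3 groups overlapped for each gene.

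With MSU-42011, no endothelial gene changed against control by edgeR's quasi-likelihood test with Benjamini-Hochberg adjustment over all genes. The count of members called was 0 of 10 (0% of all 15504 genes), it was 0 of 10 at an unadjusted p under 0.05 (1.99% of all genes), and DESeq2 also called 0. The mean was higher than control for 9 of the 10, against 50.3% of all genes, and the median log2 fold change was 0.21, against 0.0016 over all genes. The largest estimates were those of Cldn5 (log2 fold change 0.55, 95% interval -0.77 to 1.86), Tie1 (0.39, -0.56 to 1.33), Tek (0.38, -1.14 to 1.89) and Cdh5 (0.36, -0.58 to 1.29). Kdr (0.09, -0.58 to 0.76) and Flt1 (0.04, -0.67 to 0.76), the VEGF receptors, were nearest to 0 on the higher side together with Vwf (0.09, -2.07 to 2.25), and Eng was the 1 gene with a lower mean (-0.07, -1.01 to 0.88). Without MSU-42011 replicate 3 the median was 0.034, the lowest among the fits that left out 1 tumor, and the estimates of Pecam1, Flt1 and Vwf were on the lower side. No gene had groups that did not overlap (0 of 10, against 1.97% of all genes). In the tumor epithelium list, 9 of 9 genes had a lower mean with MSU-42011 than control (49.7% of all genes, median -0.184). With bexarotene it was 8 of 9 (44.7% of all genes, median -0.205), and 5 of 9 without bexarotene replicate 1 (48.9% of all genes, median -0.051).

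With bexarotene, the means of all 10 genes were higher than control (55.3% of all genes were higher), and the median log2 fold change was 0.72, against 0.030 over all genes. No gene passed edgeR's quasi-likelihood test after Benjamini-Hochberg adjustment (0 of 10, 0% of 15504 genes), and DESeq2 also called 0 of 10. Tek was the 1 gene with an unadjusted p under 0.05 (6.44% of all genes in edgeR). Its mean was 8.25 normalized CPM against 2.18 in control, a log2 fold change of 1.93 (SE 0.71, 95% interval 0.39 to 3.46, edgeR adjusted p = 0.762). Vwf had a similar estimate with a wider interval (1.85, -0.31 to 4.01), followed by Cldn5 (1.23, -0.09 to 2.55), Tie1 (0.86, -0.09 to 1.81) and Cdh5 (0.79, -0.15 to 1.73). The estimates of Kdr (0.64), Emcn (0.64), Pecam1 (0.61), Eng (0.56) and Flt1 (0.50) were close to each other. DESeq2 gave 5 members an unadjusted p under 0.05 (Cldn5, Kdr, Tek, Tie1 and Vwf), among 1389 of 29576 genes.

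These differences rested on 1 tumor. Without bexarotene replicate 1 the median log2 fold change was 0.062, 6 of the 10 means were higher than control (51.1% of all genes) and 0 of 10 had an unadjusted p under 0.05 in edgeR (3.35% of all genes). Tek was then at 0.34 (95% interval -0.42 to 1.10), Cldn5 at 0.22 (-0.74 to 1.17), Kdr at 0.16 (-0.26 to 0.57), Cdh5 at 0.14 (-0.53 to 0.81), Tie1 at 0.12 (-0.47 to 0.71) and Flt1 at 0.01 (-0.47 to 0.49). The estimates of Emcn (-0.07), Pecam1 (-0.13), Eng (-0.21) and Vwf (-0.31) were on the lower side. For Flt1 and Kdr these intervals span less than 1 log2 unit, while that of Vwf still ran from -1.84 to 1.23. No gene had groups that did not overlap, with (0 of 10, against 2.03% of all genes) or without this tumor (0 of 10, against 3.77%).

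The agonists were compared at the same dose and time, as 1 pair of compounds. With all 12 tumors, every endothelial gene was lower with MSU-42011 than with bexarotene (54.9% of all genes were lower), with a median log2 difference of -0.51, and none passed the adjusted threshold in edgeR (0 of 10, 0% of 15504 genes) or DESeq2 (0 of 10). Tek had an unadjusted p under 0.05 in edgeR (1 of 10, 3.95% of all genes), with a log2 difference of -1.55 (95% interval -3.06 to -0.04, edgeR adjusted p = 0.997). DESeq2 gave Tek and Vwf an unadjusted p under 0.05, among 926 of 29576 genes. With all 12 tumors no gene had groups that did not overlap (0 of 10, against 1.17% of all genes). Without bexarotene replicate 1 the direction turned for 9 of the 10 genes, which were then higher with MSU-42011 (50% of all genes), and the median was 0.24. No gene then had an unadjusted p under 0.05 in edgeR (0 of 10, 3.07% of all genes) or groups that did not overlap (0 of 10, 3.39%). The difference was then largest for Vwf (0.40, 95% interval -1.14 to 1.94), Cldn5 (0.33, -0.63 to 1.29), Emcn (0.32, -0.32 to 0.95) and Pecam1 (0.30, -0.47 to 1.08). Kdr (-0.06, -0.48 to 0.35), Flt1 (0.04, -0.44 to 0.52) and Tek (0.03, -0.73 to 0.79) were nearest to 0. The intervals leave room for differences of these sizes in both directions. Among the 3 groups together, edgeR's smallest p in the family was again that of Tek (adjusted p = 0.998), which ranked 375 of 15504 genes and was the 1 member with an unadjusted p under 0.05 (4.24% of all genes). Without bexarotene replicate 1, edgeR's unadjusted p of Tek was 0.48 (adjusted p = 0.993). DESeq2 gave Tek and Vwf an unadjusted p under 0.05 among the 3 groups of all 12 tumors, among 1045 of 29568 genes.

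**Figure D2:**
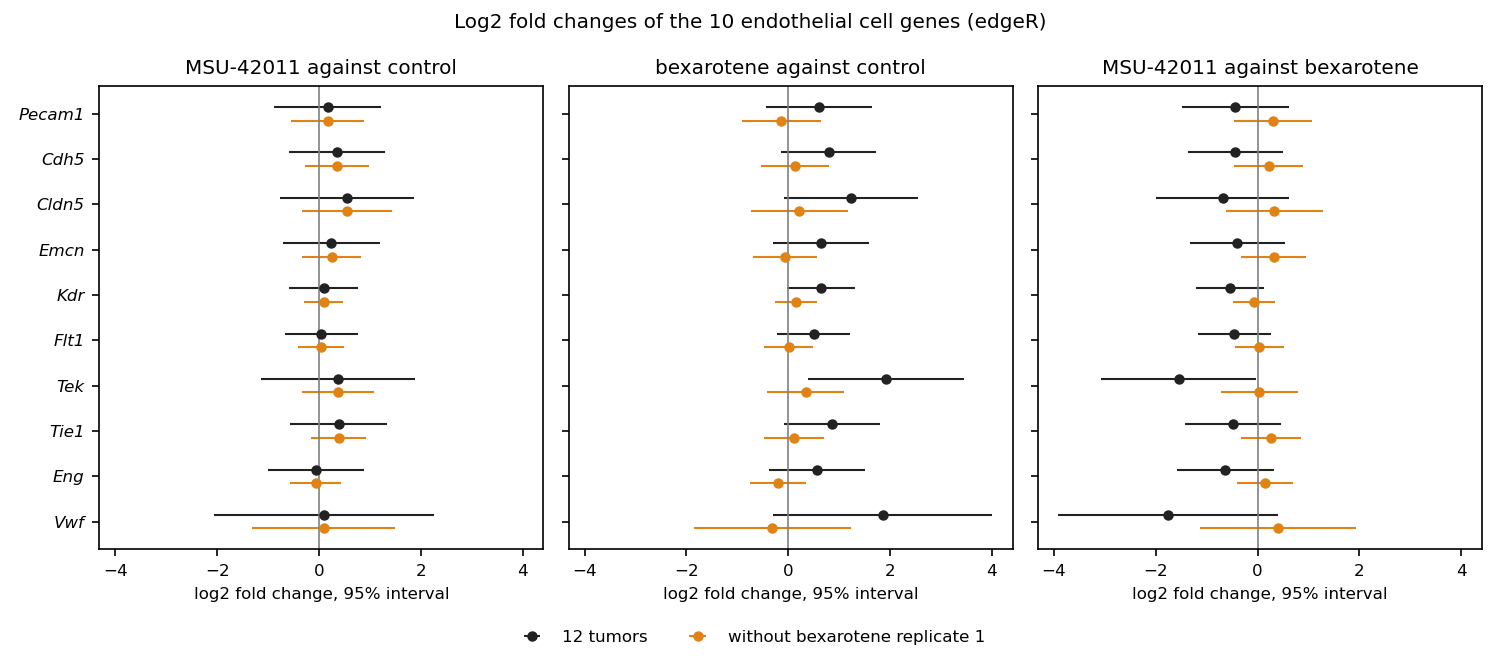
Log2 fold change of each gene in the 3 comparisons, with its 95% interval from edgeR's quasi-likelihood fit, with all 12 tumors (black) and without bexarotene replicate 1 (orange). The black points of the bexarotene comparisons lie away from 0 on 1 side, from 0.50 to 1.93 against control. Their intervals include 0 for all genes but Tek, and the orange intervals include 0 for all genes.

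Bexarotene replicate 1 was the highest of the 12 tumors for all 10 genes, and 19.1% of all tested genes were highest there. The sum of the 10 genes was 632 normalized CPM in this tumor, and 176, 178 and 183 in the other bexarotene tumors. It was 222, 116, 173 and 207 in the control and 197, 153, 288 and 172 in the MSU-42011 tumors. Relative to the median of the other 11 tumors, the genes differed in size. Vwf (14.9-fold) and Tek (10.5-fold) stood above Cldn5 (5.34-fold), and the other 7 genes lay between 2.68-fold (Kdr) and 3.76-fold (Eng). The median over all tested genes was 1.01-fold, and 13.3% of them were at least 2-fold higher in this tumor. Against the mean of the other 9 genes of the same tumor, Tek was 1.24 log2 units and Vwf 1.30 above their balance in control tumors, while Flt1 (-0.77) and Kdr (-0.67) were below. In the other 11 tumors this balance ran from -0.38 to 0.59 for Tek and from -1.04 to 1.32 for Vwf, so that the value of Tek lay above the range of the other tumors and that of Vwf inside. The balance of Flt1, Kdr (lowest elsewhere -0.62 and -0.57), Emcn (-0.39, lowest elsewhere -0.37) and Tie1 (-0.15, lowest elsewhere -0.061) lay below that range, and the other 4 genes were inside it.

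**Figure D3:**
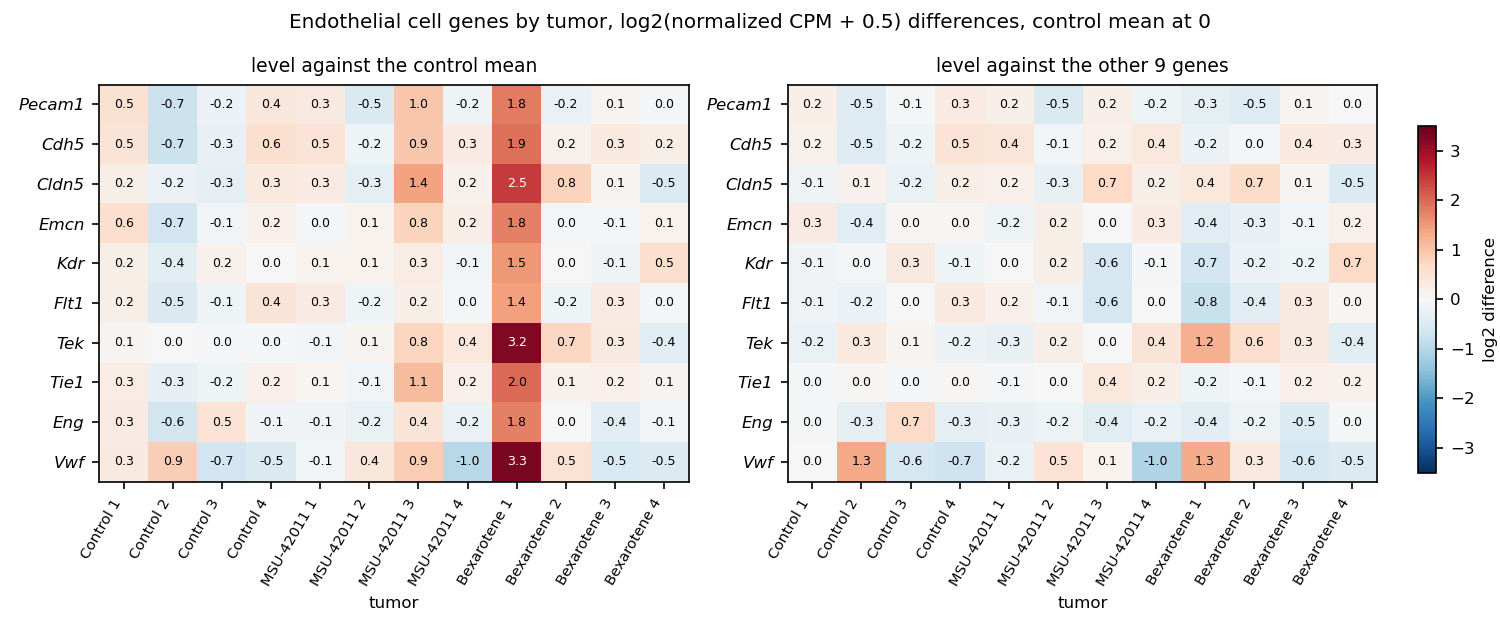
Differences in log2(normalized CPM + 0.5) by gene and tumor. On the left the level of a gene is set against its mean in control tumors, and on the right against the mean of the other 9 genes in the same tumor, again with the control mean at 0. On the left bexarotene replicate 1 is high for all 10 genes and control replicate 2 is low for most of them, and on the right Tek and Vwf stand above the others in bexarotene replicate 1.

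Markers of other cell types moved in the same tumor. Of the fibroblast list (Col1a1, Col1a2, Col3a1 and 7 others), 10 of 10 had a higher mean with bexarotene than control (55.3% of all genes, median log2 fold change 3.67), and 8 of 10 without bexarotene replicate 1 (51.1% of all genes, median 0.90). Its summed level was 11535 normalized CPM in bexarotene replicate 1 against 86.6 to 926 in the other 11. The 926 was that of bexarotene replicate 2, and the next tumor was control replicate 1 at 476. Macrophage genes (C1qa, C1qb, C1qc and 7 others) summed to 1674 there against 209 to 722 elsewhere, and pericyte and smooth muscle genes (Rgs5, Acta2, Notch3 and 9 others) to 863 against 192 to 500. Adipocyte genes (Fabp4, Lipe, Cidec and 4 others) summed to 104 against 29.8 to 48.0. Most of that sum was Fabp4 (76.3, and 12.1 to 30.55 in the others), which capillary endothelium and macrophages also make. Lipe (19.6) was inside the range of the others (14.3 to 24.03). The other 6 of the 7 adipocyte genes were above the range of the other 11 tumors, where 19.1% of all tested genes were highest. Cidec, at a low level, was at 3.985 against at most 0.855 elsewhere. Skeletal muscle genes (Acta1, Mylpf, Tnnt3 and 3 others) summed to 253 in this tumor, 140 in control replicate 1 and at most 3.98 in the other 10. By group, the summed fibroblast level ran from 86.6 to 476 in control, 174 to 467 in MSU-42011 and 142 to 11535 in bexarotene tumors, and the summed macrophage level from 209 to 722, from 242 to 611 and from 269 to 1674. With MSU-42011, 5 of 10 fibroblast genes (median 0.0244) and 2 of 10 macrophage genes (-0.135) had a higher mean than control (50.3% of all genes). So had 8 of 11 tested pericyte and smooth muscle genes (0.222). With bexarotene, 9 of 10 macrophage genes had a higher mean than control (55.3% of all genes, median 0.762). Without bexarotene replicate 1 it was 0 of 10 (51.1% of all genes, median -0.228). For pericyte and smooth muscle genes it was 8 of 11 (median 0.541) with that tumor and 4 of 11 (-0.089) without it. Genes of platelets, cells that also hold Pecam1 and Vwf, summed to 133 in bexarotene replicate 1 and to 73.9 to 191 in the other 11, and most of that sum was Itgb3, an integrin that other cells also make (102 in bexarotene replicate 1, 66.3 to 182 in the others). Pf4, a chemokine of platelet granules, was at 20.8 in bexarotene replicate 1 against at most 2.02 elsewhere, with a log2 fold change of 2.09 for bexarotene against control and -0.14 without that tumor. Itga2b, the platelet integrin subunit, was at 7.82 there, inside the range of the others (2.48 to 9.66), and Gp1bb had 0 counts in all tumors. Their part in the endothelial values was not tested.

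**Figure D4:**
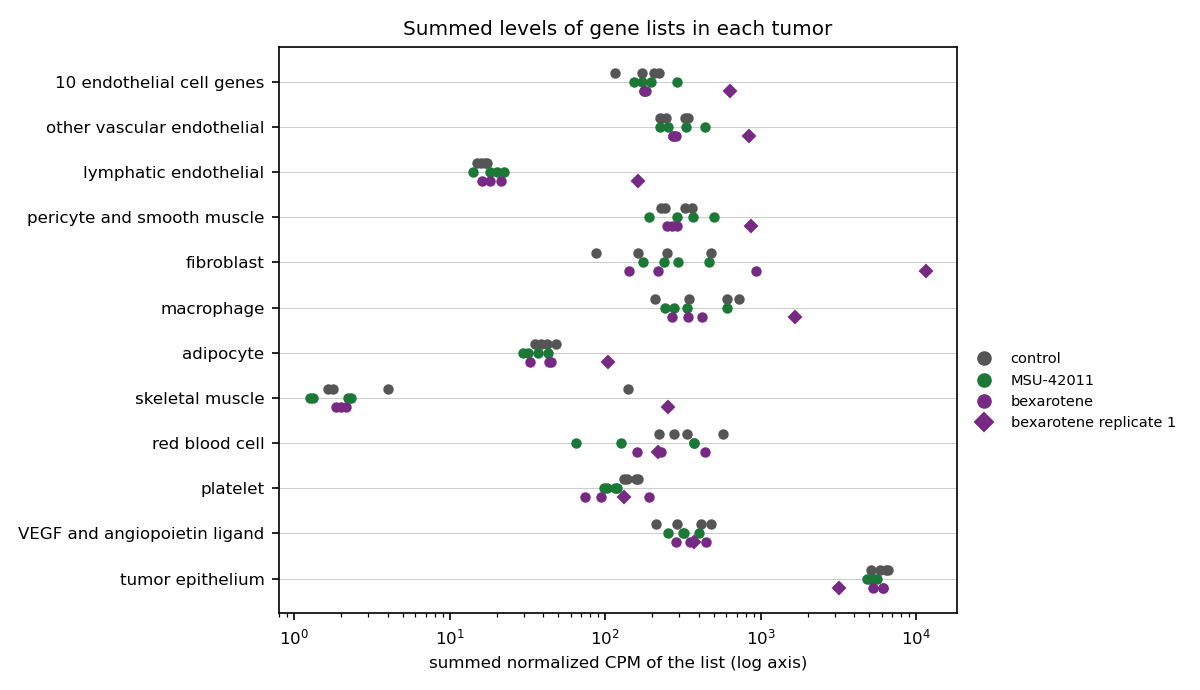
Summed normalized CPM (log axis) of the 10 endothelial genes and of lists that mark other cells or hold VEGF and angiopoietin ligands, with 1 point per tumor in the colour of its diet group. Bexarotene replicate 1 (diamond) is the highest for the endothelial (632), fibroblast (11535) and macrophage (1674) lists and the lowest for the tumor epithelium list (3173).

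Other endothelial genes were counted from lists written by hand. Of 17 tested vascular endothelial markers outside the 10, 17 had a higher mean with bexarotene than control (55.3% of all genes, median log2 fold change 0.60). Without bexarotene replicate 1 it was 10 of 17 (51.1% of all genes, median 0.032). With all tumors, 4 of 17 had an unadjusted p under 0.05 in edgeR (6.44% of all genes) and 0 an adjusted one, and without bexarotene replicate 1 it was 0 of 17 (3.35% of all genes). Those 4 were Plvap (log2 fold change 0.61), Icam2 (1.04), Nos3, the endothelial nitric oxide synthase (1.07), and She (1.05). Their estimates without bexarotene replicate 1 were 0.154, 0.556, 0.468 and 0.327. The most abundant per length, Mcam, Plvap and Esam, reached 106, 145 and 50.3 normalized CPM in bexarotene replicate 1, against highest values of 91.7, 63.8 and 27.9 in the other tumors. With MSU-42011, 15 of the 17 tested markers had a higher mean than control (50.3% of all genes, median log2 fold change 0.268). In the lymphatic list, whose summed level was 163 in bexarotene replicate 1 and 14.1 to 22.5 in the other tumors, Lyve1 was at 73.7 and Pdpn at 56.5 there, against at most 1.86 and 4.63 elsewhere. Both genes are also made by cells other than lymphatic endothelium. Reln was the 1 of 3 tested lymphatic genes with an unadjusted p under 0.05 in edgeR, with MSU-42011 (log2 fold change 1.20, adjusted p = 0.9999, against 1.99% of all genes with such an unadjusted p) and with bexarotene (1.40, adjusted p = 0.762, against 6.44%). Its estimate with bexarotene was 0.94 without bexarotene replicate 1, where 0 of 3 had an unadjusted p under 0.05 (3.35% of all genes). Flt4, which encodes VEGFR3, had estimates of 0.61 with bexarotene and 0.07 without that tumor. The means of Reln were low, at 0.445 normalized CPM in control, 1.02 in MSU-42011 and 1.17 in bexarotene tumors. Prox1, the factor that sets lymphatic identity, was at 7.34 in this tumor, inside the range of the others (5.35 to 9.44), and Ccl21a had 0 counts in all tumors.

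Among the ligands, Vegfa, the main VEGF of tumors, was at 167 ± 88.4 normalized CPM in control, 164 ± 57.3 in MSU-42011 and 180 ± 48.0 in bexarotene tumors (SD, n = 4 each), with 146 in bexarotene replicate 1, the lowest of its group. Angpt2, the angiopoietin that sprouting endothelium makes, was at 11.1 ± 5.92, 10.4 ± 6.18 and 8.08 ± 2.71, and Angpt1, its counterpart from perivascular cells, at 2.62 ± 3.16, 1.83 ± 1.54 and 1.75 ± 2.31. Angpt1 was at 5.13 in bexarotene replicate 1, and bexarotene replicates 2 to 4 had a mean of 0.629. Its log2 fold change for bexarotene against control was -0.56, and -2.04 without bexarotene replicate 1. Vegfa, Vegfb and Tgfb1 were the most abundant of the ligands per length. Of 9 tested ligands, 4 had a higher mean with bexarotene than control (55.3% of all genes) and 5 a lower one. Without bexarotene replicate 1, 3 were higher (51.1% of all genes) and 6 lower. With MSU-42011, 2 were higher than control (50.3% of all genes) and 7 lower. In edgeR 0 of the 9 passed the adjusted threshold in any of these. Vegfc, a ligand of VEGFR3 and VEGFR2, was the 1 of 9 with an unadjusted p under 0.05 with bexarotene, against 6.44% of all genes (log2 fold change 2.33, SE 0.85, edgeR adjusted p = 0.762, and 0.44 without bexarotene replicate 1). With MSU-42011 its log2 fold change was 1.12, and its unadjusted p was above 0.05 with all tumors and under it without bexarotene replicate 1 (1 of 9, against 2.63% of all genes).

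Of 14 tested receptors and partners, such as neuropilins and Notch receptors, 12 had a higher mean with bexarotene (55.3% of all genes, median log2 fold change 0.59). Without bexarotene replicate 1 it was 5 of 14 (51.1% of all genes, median -0.083). In this tumor 13 of the 14 were above the range of the other 11 tumors, where 19.1% of all tested genes were highest. Of the most abundant per length, Tgfbr2, a TGF-beta receptor, was at 495 normalized CPM (129 to 389 in the others) and Acvrl1, the receptor ALK1 that works with endoglin, at 59.6 (17.6 to 40.3). Notch1, which other cells also make, was the exception, at 83.8 (57.4 to 122 in the others). With all tumors Ramp2, the partner of the adrenomedullin receptor, was the 1 of 14 with an unadjusted p under 0.05, a share near the 6.44% of all genes (log2 fold change 1.08). Without bexarotene replicate 1 its estimate was 0.29, and 0 of 14 had such a p (3.35% of all genes). With MSU-42011, 12 of the 14 had a higher mean than control (50.3% of all genes, median log2 fold change 0.194). Of 15 transcription factors of endothelium, 13 were higher with bexarotene (55.3% of all genes, median 0.99). Klf2 (1.23), Klf4 (1.51), Sox18 (0.82) and Lyl1 (1.30) had an unadjusted p under 0.05 (4 of 15, against 6.44% of all genes), while 0 had an adjusted one in edgeR. Without bexarotene replicate 1 the median of the 15 was 0.17, and 0 of 15 had an unadjusted p under 0.05 (3.35% of all genes). The estimates of Klf2, Klf4, Sox18 and Lyl1 were then 0.336, 0.406, 0.285 and 0.229. Of the most abundant per length, Ets2 and Ets1 had log2 fold changes of -0.14 and 0.11 with bexarotene, and -0.16 and -0.33 without that tumor. Junction genes that epithelium shares (Jup, Ctnnb1, F11r and 6 others) had a median of -0.14 with bexarotene, with 7 of 9 lower (44.7% of all genes). Without bexarotene replicate 1 the median was -0.082, with 6 of 9 lower (48.9% of all genes). The summed level of that list was 1534 in bexarotene replicate 1 against 1537 to 2058 in the others. Of 7 tested arterial genes, 1 was higher (Gja5, 3.08) and 1 lower (Hey1, -0.38) with bexarotene at an unadjusted p under 0.05 (6.44% of all genes), and the median of the list was 0.715. Without bexarotene replicate 1 the estimates of these genes were 1.25 and -0.30, 0 of 7 had such a p (3.35% of all genes), and the median was -0.26. Dll4 and Efnb2, the next most abundant arterial genes, had estimates of -0.07 and 0.36 with all tumors. Without bexarotene replicate 1 these were -0.26 and -0.36. Of 3 tested venous genes (Ephb4, Vcam1 and Nr2f2), Nr2f2 was the 1 with an unadjusted p under 0.05 with bexarotene (0.66, against 6.44% of all genes). Without bexarotene replicate 1 its estimate was 0.38, and 0 of 3 had such a p (3.35% of all genes). The tip cell list (Cxcr4, Kcne3, Esm1 and 5 others) had a median of -0.039, and -0.12 without that tumor.

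The 10 genes varied together from tumor to tumor to different degrees. Among the 12 tumors all 45 pairs had a Pearson correlation over 0.5, on log2(normalized CPM + 0.5), and among the 11 without bexarotene replicate 1 there were 21 such pairs, with a median of 0.451. These correlations are a description over tumors of 3 diets that share libraries and depth. Over the 11 tumors the closest pair was Pecam1 and Cdh5 (0.921), and Flt1 and Vwf the least alike (-0.317). Against the mean of the other 9 genes, Tie1 followed most closely (0.933), then Pecam1 (0.841), Cldn5 (0.814), Emcn (0.808) and Cdh5 (0.803). Eng (0.564), Flt1 (0.524) and Tek (0.517) followed less, and Kdr (0.329) and Vwf (0.132) least. In these 11 tumors, MSU-42011 replicate 3 was the highest for 7 of the 10 genes (16.3% of all genes were highest there) and control replicate 2 the lowest for 7 (10.4% of all genes).

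The genes outside the 10 whose levels were most like the mean of the 10 across the 11 tumors were Plxnd1, a semaphorin receptor of endothelium (0.961), Adamts2, a procollagen peptidase (0.958), Ppic, a cyclophilin (0.954), Kif26a (0.946), Crim1 (0.940), Sparc, a matrix protein (0.929), Cd34, a marker of capillary endothelium and progenitors (0.923), and Col15a1, a basement membrane collagen (0.920). Plxnd1 ranged from 30.5 to 75.1 normalized CPM in the 11 tumors and reached 156 in bexarotene replicate 1. Sparc ranged from 114 to 636 and reached 2429. By list, the median correlation with the 10 genes was 0.786 for the other vascular markers, 0.597 for pericytes and smooth muscle, 0.538 for macrophages and 0.482 for fibroblasts, against -0.015 over all tested genes. Red blood cell genes (Hba-a1, Hbb-bs, Hba-a2 and 2 others) had a median of -0.587, the lowest of the lists. MSU-42011 replicate 3, the highest of the 11 tumors for most endothelial genes, had the lowest summed level of red blood cell genes (65.3 normalized CPM), and it was also the highest of the 11 for pericyte and smooth muscle genes (500). The part of these other cells in the endothelial values was not tested.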

How the data were processed

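The 10 genes and all other lists were chosen with earlier results of these data known. Poly(A) libraries of 12 tumors were sequenced. Per the labels the submitters' processing notes name STAR 2.6.1d, featureCounts 1.5.0-p3 and DESeq2. The authors deposited raw read counts per gene, without normalization, and FPKM values, which they had scaled by library total and gene length. The strand setting is not given in the sources used here, and the coordinates equal those of GENCODE M21 on GRCm38 for 98.3% of genes.

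Counts were normalized by TMM and filtered with filterByExpr in edgeR 4.0.16 (R 4.3.3), which kept 15504 genes. Its quasi-likelihood test compared the groups in a single model of 3 means that had no covariates, with Benjamini-Hochberg adjustment over all tested genes and a threshold of 0.05. The 95% intervals use the degrees of freedom of that fit. Within groups, tumors came from separate mice. The script was tested on simulated data. Exact two-sided permutation tests of 4 against 4 tumors cannot go below 0.0286 and gave no member a smaller value than 0.05. Total counts of 16583413 to 25925027 per tumor limit the precision of Tek and Vwf most.

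Alternatives were edgeR scaled by DESeq2's size factors, all genes with a count, a replicate block, each tumor left out, DESeq2 1.42.0, and limma 3.58.1 on log2 FPKM with 1 or 0.1 added. Named genes were all members, the 3 genes of each list with the highest mean FPKM, any list gene past the threshold, the 8 genes most like the members, and Vegfa, Angpt1 and Angpt2. List genes named for an unadjusted p, and Prox1, Ccl21a, Gp1bb, Krt19, Cldn4 and Erbb2, were chosen after their values were seen. Lists are described by counts and medians.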

Additional observations from a re-analysis of the deposited data

Results flagged for a closer look

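In groups of 4 tumors, a tumor was singled out where its gap to the nearest other tumor, divided by the range of the group, was above Dixon's 95% critical value. Over 30 groups examined (10 genes in 3 diet groups), 10 values met this. Chance gives about 1 in 20 groups, and the genes share their tumors, so these values are not independent. Bexarotene replicate 1 was the tumor in 7 of them, as the highest of its group for Pecam1 (111.9 normalized CPM), Cdh5 (124.2), Tek (24.76), Tie1 (56.31), Emcn (32.73), Vwf (15.54) and Eng (123.5). Its values of Kdr, Flt1 and Cldn5 were the highest too but did not pass the critical value. MSU-42011 replicate 3 was the highest of its group for Tie1 (30.33) and Eng (49.18). Control replicate 1 was the highest of its group for Tek (2.374), in a group whose other tumors lay between 2.08 and 2.13.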

How the results depend on the processing

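No endothelial gene passed the adjusted threshold under any alternative run with edgeR, DESeq2 or limma. Over all genes, DESeq2 at its defaults called 5 among the 3 groups. Against control it called 1 with MSU-42011 and 6 with bexarotene, and it called 25 between the agonists, where edgeR called 0. limma called 1 gene for bexarotene against control on log2(FPKM + 0.1) and 1 on log2(FPKM + 1) without a filter. Leaving out each tumor gave 0 to 1 genes called among the 3 groups and 0 to 1 for bexarotene against control, with the 1 gene in both without MSU-42011 replicate 2.

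With bexarotene against control, 186 of 190 values of single members kept their direction, and the 4 that turned were all without bexarotene replicate 1. The ranges over left-out tumors were -0.31 to 2.36 for Vwf, -0.13 to 0.82 for Pecam1, -0.21 to 0.79 for Eng and -0.068 to 0.87 for Emcn (log2 fold changes), and the median of the 10 genes ran from 0.062 to 0.90. With MSU-42011 against bexarotene, 181 of 190 kept their direction and the 9 that turned were again without bexarotene replicate 1. There the median ran from -0.80 to 0.24, with -0.79 to 0.30 for Pecam1, -0.65 to 0.22 for Cdh5, -0.63 to 0.038 for Flt1, -1.89 to 0.033 for Tek, -0.83 to 0.27 for Tie1, -0.60 to 0.32 for Emcn, -2.23 to 0.40 for Vwf, -0.86 to 0.14 for Eng and -1.19 to 0.33 for Cldn5.

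With MSU-42011 against control, 173 of 190 kept their direction, and 14 of the 17 that turned came from left-out tumors, with ranges of -0.26 to 0.10 for Eng, -0.18 to 0.36 for Pecam1, -0.11 to 0.22 for Flt1, -0.020 to 0.16 for Kdr and -0.38 to 0.61 for Vwf. The other 3 were those of Eng in limma, at 0.022 with 1 added, 0.025 with 0.1 added and 0.022 without a filter, and the cause was not tested. With the replicate block the medians were 0.29, 0.61 and -0.38 in the 3 comparisons and 0 genes were called in each. The replicate numbers do not pair the tumors: of 12 same-number pairs 4 had a correlation over 0.1 (range -0.352 to 0.349), and 0 tumors matched best with their own number in both other groups. Depth limits Vwf and Tek most, with as few as 8 and 25 counts in a tumor.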
